A study of Mus musculus with 8 samples.

Results

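The 10 genes examined here bring glucose into the cell and carry it to lactate: the transporter genes *Slc2a1* and *Slc2a3*, the glycolytic enzyme genes *Hk1*, *Hk2*, *Pfkp*, *Aldoa*, *Eno1*, *Pkm* and *Ldha*, and *Pdk1*, whose product holds pyruvate back from the mitochondrial oxidation route. They were picked by name from the 11911 genes of the count table, and all 10 were listed and tested. The libraries came from spleen naive CD4+ T cells of Foxp3YFP-Cre mice (control, 4 libraries) and Tdrd3fl/fl/Foxp3YFP-Cre mice (4 libraries), cultured for 36 hours with TGF-β, stimulating hamster antibodies to CD3 and CD28, and blocking antibodies to IL-4 and IFNγ, a mixture that turns naive cells into induced regulatory T cells (iTregs). Both genotypes carry the Cre allele; the floxed *Tdrd3* gene distinguishes them. Cre is made from the *Foxp3* locus, so deletion can begin once a cell transcribes *Foxp3*, and the study's methods describe harvest of CD4+ cells and name no sort of YFP+ cells before RNA was taken. The methods speak of independent mice but name fewer replicates per group than the labels do, and the labels name no mouse, age or batch, so whether all libraries of a genotype come from separate mice is not known. The comparison asks how loss of TDRD3, a Tudor domain protein that acts with transcription factors, goes along with RNA of the glucose route early in iTreg induction.

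Glucose enters T cells through facilitative transporters of the SLC2A family and is trapped by hexokinase, which adds a phosphate. Phosphofructokinase then makes the committed step, aldolase splits the sugar, enolase and pyruvate kinase complete the path to pyruvate, and lactate dehydrogenase turns pyruvate into lactate and so restores the NAD+ that glycolysis needs. Naive T cells use little glucose, whereas stimulation through CD3 and CD28 raises uptake and aerobic glycolysis, with Myc and the hypoxia-inducible factors among the activators of these genes. Regulatory T cells are known to draw more on oxidative metabolism than effector T cells do.

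Hypoxia-inducible factors bind sites with the core ACGTG or GCGTG. Among the 250 bases before a RefSeq start (RefSeq promoter table of build GRCm38.p6, both strands searched), 38.595% of 32851 windows held at least 1 of these cores, 16.572% held ACGTG and 28.157% held GCGTG. RefSeq windows were found for 9 of the 10 genes, and each of the 9 had at least 1 window with a core, in all 13 of 17 windows, some of which overlap where a gene has several starts. The stretches below are cut where an annotated exon begins and so hold none, were each found once in GRCm39, and read 5′ to 3′ on the strand of the gene, with the cores in capitals. *Hk2* is shown because it had the smallest p of the 10 genes, and *Slc2a1* as the main glucose transporter of activated T cells. *Ldha* is shown because 1 of its windows had the highest count of cores while its RNA differed least between genotypes. That count takes each CACGTG on both strands, so it is higher than the number of separate sites. CACGTG, the E-box to which Myc binds, contains ACGTG on both strands and was present in 6.021% of windows. A match of letters does not show that a factor was bound.
Hk2 (chr6:82751470-82751685, GRCm39, minus strand): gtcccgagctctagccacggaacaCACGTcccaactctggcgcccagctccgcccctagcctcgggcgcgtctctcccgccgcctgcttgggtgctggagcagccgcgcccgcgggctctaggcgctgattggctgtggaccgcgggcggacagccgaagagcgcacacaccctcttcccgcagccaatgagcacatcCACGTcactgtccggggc
Slc2a1 (chr4:118965692-118965907, GRCm39, plus strand): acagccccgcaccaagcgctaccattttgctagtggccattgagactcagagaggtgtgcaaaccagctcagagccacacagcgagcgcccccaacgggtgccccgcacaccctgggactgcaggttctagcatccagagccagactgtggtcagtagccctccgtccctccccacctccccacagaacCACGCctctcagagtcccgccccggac
Ldha (chr7:46494978-46495131, GRCm39, plus strand): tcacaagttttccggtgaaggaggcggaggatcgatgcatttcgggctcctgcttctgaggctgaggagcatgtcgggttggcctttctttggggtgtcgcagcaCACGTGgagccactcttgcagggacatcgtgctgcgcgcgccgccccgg
In the full window of 250 bases, *Hk2* had 2 ACGTG cores, *Slc2a1* had 1 ACGTG and 1 GCGTG, and *Ldha* had 5 ACGTG, 4 of which are the 2 strands of its 2 CACGTG motifs. The *Ldha* window lies inside the annotated span of the gene, before the RefSeq start used here and after exons of transcripts that start further upstream.

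The listed genes summed to between 13258239 and 16001676 estimated counts per library. Values are given as CPM, TMM-normalized counts scaled to the total of each library, and 3 counts correspond to 0.188 to 0.225 CPM. *Tdrd3* averaged 15.4 ± 3.95 CPM (SD, n = 4) in controls and 12.1 ± 1.43 CPM (SD, n = 4) in Tdrd3fl/fl/Foxp3YFP-Cre iTregs, with an edgeR adjusted p of 0.496, and the library labelled Foxp3YFP-Cre replicate 3, at 9.95 CPM, was below every Tdrd3fl/fl/Foxp3YFP-Cre library and so went against its label. Without that library *Hk2* and *Slc2a3* had log2 fold changes of 0.18 and 0.23, and *Egln3*, described further on, 0.41 (edgeR adjusted p = 0.113, 0.331 and 0.0084). *Foxp3* averaged 110 ± 12.5 and 88.4 ± 13.3 CPM (SD, n = 4 each, edgeR adjusted p = 0.152). The summed level of 5 regulatory T cell markers (*Foxp3*, *Il2ra*, *Ctla4*, *Ikzf2*, *Tnfrsf18*) was 3347 to 3466 CPM in controls and 3145 to 3250 CPM in Tdrd3fl/fl/Foxp3YFP-Cre libraries, and none of the 5 passed the edgeR test. The sums of CD4 T cell markers were 1420.0 to 1487 and 1383 to 1440 CPM, with *Trac* not listed. Markers of B cells, myeloid cells, NK cells and red cells summed to at most 3.69 CPM in any library, no neutrophil marker was listed, and *Cd8a* with *Cd8b1* reached 21.6 CPM in 1 control library against 6.67 to 8.35 CPM in Tdrd3fl/fl/Foxp3YFP-Cre libraries. The part of these marker levels in the results below was not tested.

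RNA of the glucose route differed little between the genotypes, and none of the 10 genes passed the edgeR quasi-likelihood test with p adjusted over the 11317 tested genes, of which 0.265% passed. At an unadjusted P below 0.05 there were 2 of the 10, *Hk2* and *Slc2a3*, both with more RNA in Tdrd3fl/fl/Foxp3YFP-Cre iTregs, beside 9.3% of all tested genes. With the further demand of a 1.2-fold difference 1 remained, *Slc2a3*, beside 3.47% of tested genes. *Hk2* and *Slc2a3* were also the 2 genes whose 4 control libraries all lay below all 4 Tdrd3fl/fl/Foxp3YFP-Cre libraries, a separation seen in either direction for 4.89% of tested genes. The log2 fold change, Tdrd3fl/fl/Foxp3YFP-Cre over control, was positive for 8 of the 10 genes, beside 5732 of the 11317 tested genes, and ranged from −0.07 to 0.27. Without Foxp3YFP-Cre replicate 4 those of *Eno1* and *Ldha* turned negative, at −0.016 and −0.015. Over all tested genes the median was 0.0013, which normalization holds near 0, and over the 10 genes it was 0.07. The half-width of the 95% interval of a single gene had a median of 0.097 on the log2 scale, so differences of the size of this median could not be told from 0 for most single genes. DESeq2 and limma (voom with sample quality weights) each placed 1 of the 10 genes, *Hk2*, past an adjusted threshold of 0.05, beside 0.76% and 0.839% of the genes they gave an adjusted p. In these bulk libraries a different share of cells that express a gene and a different amount of RNA per cell cannot be told apart.

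**Figure D1:**
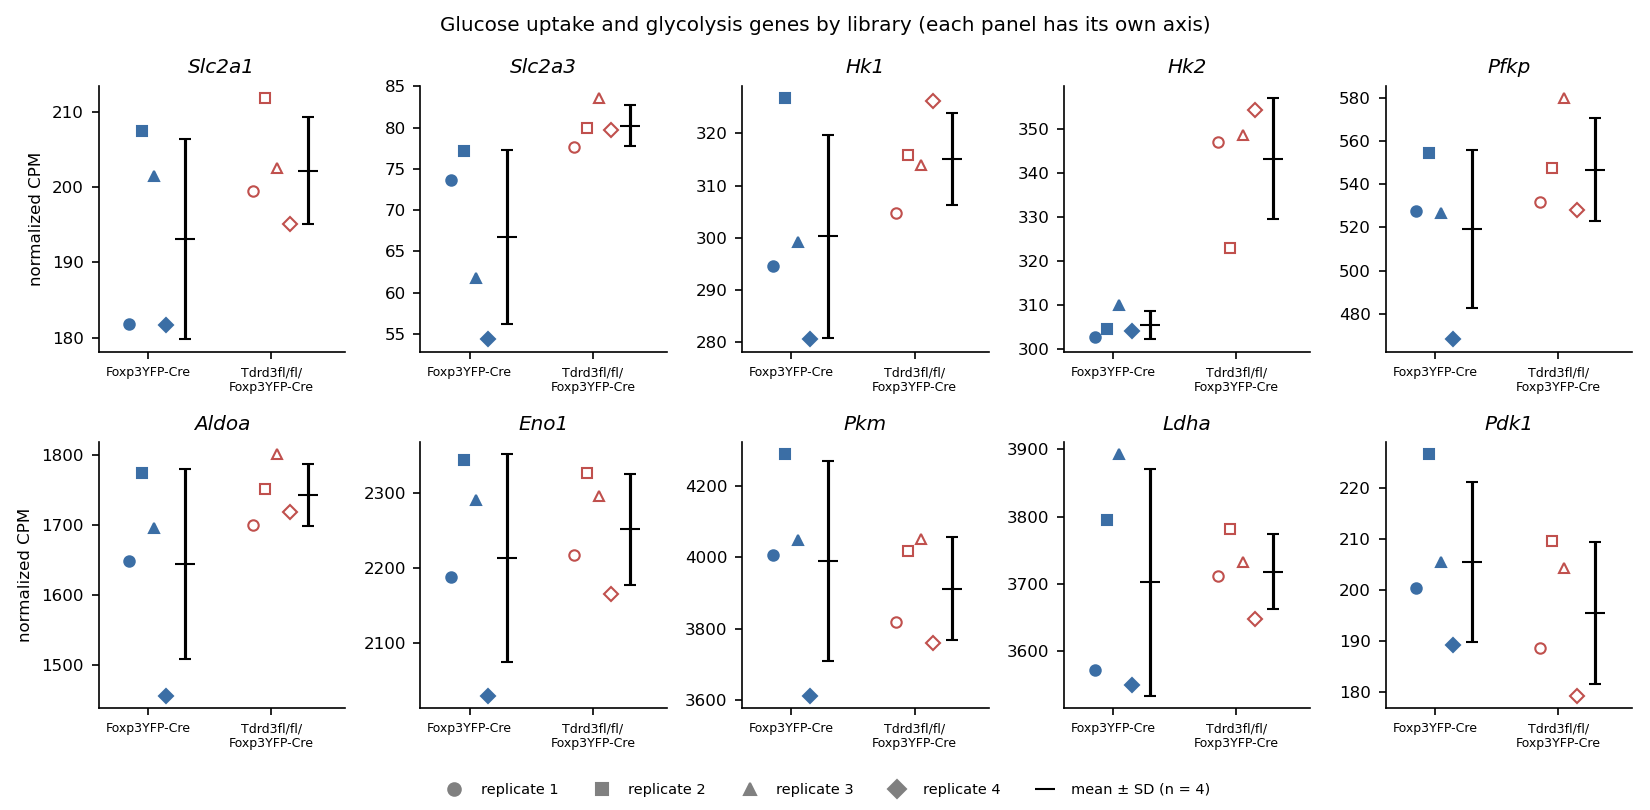
Normalized CPM of the 10 genes in each library, filled blue for Foxp3YFP-Cre and open red for Tdrd3fl/fl/Foxp3YFP-Cre, with symbols for the replicate number and a bar for mean ± SD (n = 4 libraries); every panel has its own axis, which does not start at 0. The genotypes separate for *Slc2a3* and *Hk2* and overlap for the other 8 genes, and Foxp3YFP-Cre replicate 4 is the lowest control library in 9 panels.

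Glucose transporters stand at the head of the route. *Slc2a1* (ENSMUSG00000028645, chr4:118965908-118995180 of GRCm39, plus strand) encodes GLUT1, through which activated T cells take up most of their glucose. It had 182, 207, 201 and 182 CPM in Foxp3YFP-Cre replicates 1 to 4 and 199, 212, 202 and 195 CPM in Tdrd3fl/fl/Foxp3YFP-Cre replicates 1 to 4. The genotypes overlapped, with 2 control libraries below all the others, and the log2 fold change was 0.07 with an interval from −0.04 to 0.17 (edgeR adjusted p = 0.777). *Slc2a3* (ENSMUSG00000003153, chr6:122704768-122778599, minus strand) encodes GLUT3, a transporter with high affinity for glucose. Its levels were 73.6, 77.1, 61.8 and 54.3 CPM in the 4 control libraries and 77.7, 79.9, 83.6 and 79.7 CPM in the 4 Tdrd3fl/fl/Foxp3YFP-Cre libraries. The highest control library therefore came within 1 CPM of the lowest Tdrd3fl/fl/Foxp3YFP-Cre library, and controls spread far more, with a coefficient of variation of 15.8% against 3.05%. The log2 fold change was 0.27 ± 0.081 (SE; edgeR P = 0.0039, adjusted p = 0.205), and the exact two-sided permutation test gave p = 0.0286, the smallest p that 4 against 4 libraries allow. At 1.202-fold the gene lay at the edge of the 1.2-fold demand, which it no longer met without the library labelled Foxp3YFP-Cre replicate 3, without replicate 4 or without Tdrd3fl/fl/Foxp3YFP-Cre replicate 3, and the log2 fold change was 0.18 without Foxp3YFP-Cre replicate 4.

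Hexokinases trap glucose in the cell. *Hk2* (ENSMUSG00000000628, chr6:82702006-82751435, minus strand) encodes the inducible hexokinase that T cells make after activation. It had 303, 305, 310.0 and 304 CPM in controls and 347, 323, 349 and 354 CPM in Tdrd3fl/fl/Foxp3YFP-Cre iTregs. Control libraries were nearly alike, with a coefficient of variation of 1.06%, where counting error alone gives 1.55% at the lowest count of the gene. All 4 Tdrd3fl/fl/Foxp3YFP-Cre libraries were higher, replicate 2 by the least. The log2 fold change was 0.17 with a standard error of 0.039 and an interval from 0.09 to 0.25, equal to 1.12-fold (edgeR P = 3.6e-04, adjusted p = 0.0758; exact permutation p = 0.0286). *Hk2* passed the adjusted threshold in 3 of 15 alternatives, with an adjusted p of 0.0069 in DESeq2, 0.0285 in limma and 0.0149 in edgeR without Tdrd3fl/fl/Foxp3YFP-Cre replicate 2, where 1.42% of all tested genes passed, and its adjusted p reached 0.359 in the least favourable of the 15. *Hk1* (ENSMUSG00000037012, chr10:62104634-62215687, minus strand), the hexokinase that most tissues express at all times, had 295, 327, 299 and 280.4 CPM in controls and 305, 316, 314 and 326 CPM in Tdrd3fl/fl/Foxp3YFP-Cre iTregs. Its genotypes overlapped through the high value of Foxp3YFP-Cre replicate 2, and the log2 fold change was 0.07 (edgeR adjusted p = 0.714).

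Phosphofructokinase and aldolase gave the same picture of overlap. *Pfkp* (ENSMUSG00000021196, chr13:6629804-6698813, minus strand), the platelet-type subunit of phosphofructokinase, had 528, 554, 527 and 468 CPM in controls and 532, 548, 579.9 and 528 CPM in Tdrd3fl/fl/Foxp3YFP-Cre iTregs. The log2 fold change of *Pfkp* was 0.07 with an interval from −0.02 to 0.17 (edgeR adjusted p = 0.708). *Aldoa* (ENSMUSG00000030695, chr7:126394406-126399923, minus strand), the main aldolase of muscle and of dividing cells, had 1648, 1775, 1696 and 1455 CPM in controls and 1700.3, 1752, 1801 and 1718 CPM in Tdrd3fl/fl/Foxp3YFP-Cre iTregs. For both genes replicate 4 was the lowest control, and replicate 2, the highest control, stood among the Tdrd3fl/fl/Foxp3YFP-Cre libraries. The log2 fold change of *Aldoa* was 0.08 with an interval from −0.01 to 0.18 (edgeR adjusted p = 0.639). Of the 100-base stretches of the main *Aldoa* transcript, 85.3% also occur in transcripts annotated to *Gm57854*, which had 1.47 CPM in controls, and 41.2% of those of *Pfkp* occur on the other strand in *Pitrm1*, so how reads were divided could matter for these genes.

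The enzymes from enolase to lactate dehydrogenase had the smallest log2 fold changes of the 10 genes. *Eno1* (ENSMUSG00000063524, chr4:150321178-150333336, plus strand), the enolase of most tissues, ranged from 2029.8 to 2345 CPM in controls and from 2165 to 2327 CPM in Tdrd3fl/fl/Foxp3YFP-Cre iTregs, with a log2 fold change of 0.02 (edgeR adjusted p = 0.920). Its transcript shares 51.5% of its 100-base stretches with *Eno1b*, a near-identical gene copy listed at 1038 ± 86.1 CPM (SD, n = 4) in controls. With the counts of both summed the log2 fold change stayed at 0.02, with a standard error of 0.042 (edgeR adjusted p = 0.933). *Pkm* (ENSMUSG00000032294, chr9:59563651-59586658, plus strand), the pyruvate kinase gene of T cells, whose 2 splice forms the table does not separate, ranged from 3613 to 4289 CPM in controls and from 3759 to 4052 CPM in Tdrd3fl/fl/Foxp3YFP-Cre iTregs, a log2 fold change of −0.03 with an interval from −0.12 to 0.06 (edgeR adjusted p = 0.912). *Ldha* (ENSMUSG00000063229, chr7:46490899-46505051, plus strand), the subunit of lactate dehydrogenase that favours lactate, had 3572, 3795, 3893 and 3549 CPM in controls and 3712, 3781, 3733 and 3647 CPM in Tdrd3fl/fl/Foxp3YFP-Cre iTregs. All 4 Tdrd3fl/fl/Foxp3YFP-Cre values of *Ldha* fell inside the range of the controls, and the interval of its log2 fold change of 0.01 ran from −0.07 to 0.08, or 0.954-fold to 1.06-fold (edgeR adjusted p = 0.972). Of the 100-base stretches of the main transcripts of *Pkm* and *Ldha*, 31.2% and 26.2% also occur in other genes, on either strand. The division of reads could matter for these genes too.

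*Pdk1* (ENSMUSG00000006494, chr2:71703568-71734202, plus strand) encodes a kinase that inhibits pyruvate dehydrogenase and so favours lactate over oxidation. It had 200.5, 227, 206 and 189 CPM in controls and 189, 209.7, 204 and 179 CPM in Tdrd3fl/fl/Foxp3YFP-Cre iTregs. The genotypes overlapped, replicate 2 was the highest library of each, and the log2 fold change was −0.07 with an interval from −0.19 to 0.05 (edgeR adjusted p = 0.800).

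**Figure D2:**
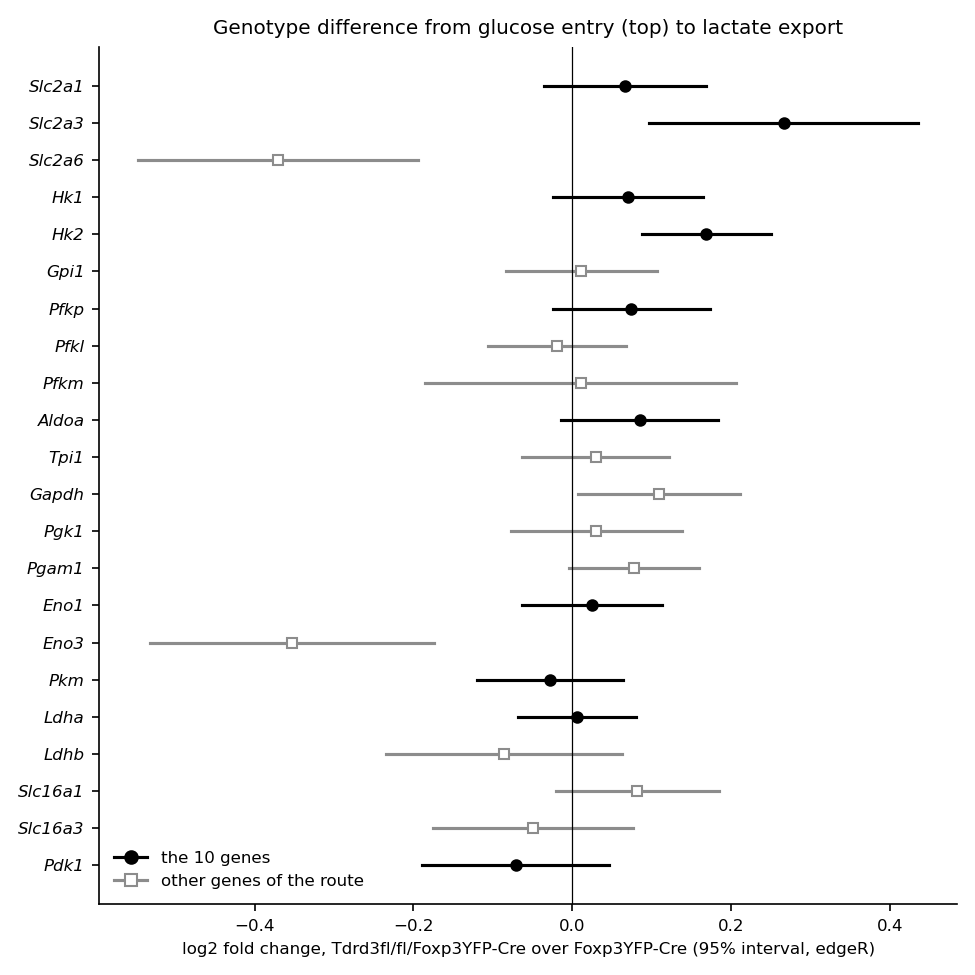
Log2 fold change, Tdrd3fl/fl/Foxp3YFP-Cre over Foxp3YFP-Cre, with its 95% interval from edgeR (n = 4 libraries per genotype), in the order of the route from glucose entry to lactate export and *Pdk1*; black points are the 10 genes and open grey squares are other genes of the route. Intervals of *Slc2a3* and *Hk2* lie above 0 and those of *Slc2a6* and *Eno3* lie below 0, and *Ldha* sits at 0.01.

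Levels of different genes are given here as CPM per kilobase of annotated exon, with every exon of a gene merged. The merged length exceeds that of the main transcript unevenly. It is 13417 against 2448 bases for *Pkm* and 16462 against 4308 for *Pfkp*, but 8269 against 7796 for *Hk2*. The order below therefore holds for merged exons and can differ with the length of the main transcript. In controls *Ldha* stood highest at 781 ± 35.6 CPM per kilobase (SD, n = 4), followed by *Aldoa* at 306 ± 25.3, *Pkm* at 297 ± 20.9 and *Eno1* at 192 ± 12.04 CPM per kilobase. The gap to the next gene was wide, with *Slc2a1* at 41.2 ± 2.84, *Hk2* at 36.9 ± 0.39, *Hk1* at 34.2 ± 2.21 and *Pfkp* at 31.5 ± 2.21 CPM per kilobase. *Pdk1* followed at 23.3 ± 1.78 and *Slc2a3* was lowest at 8.90 ± 1.41 CPM per kilobase. Between neighbours in this order, the control libraries overlapped for *Aldoa* and *Pkm*, for *Hk2* and *Hk1*, and for *Hk1* and *Pfkp*, and did not overlap for the others. GLUT1 RNA was thus more abundant than GLUT3 RNA per kilobase of merged exon in iTregs of both genotypes. *Slc2a1* stood at 43.1 ± 1.51 and *Slc2a3* at 10.7 ± 0.33 CPM per kilobase in Tdrd3fl/fl/Foxp3YFP-Cre libraries. Their main transcripts measure 4445 of 4691 and 3959 of 7500 bases, so the size of this gap depends on the length used. Together the 10 genes took 1.31 ± 0.076% of the counts in controls and 1.33 ± 0.034% in Tdrd3fl/fl/Foxp3YFP-Cre libraries (SD, n = 4 each). *Pkm*, *Ldha*, *Eno1* and *Aldoa* made up 87.8 to 88.1% of that share in controls and 87.2 to 87.6% in Tdrd3fl/fl/Foxp3YFP-Cre libraries.

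Control libraries varied in the same direction for most of the 10 genes. Foxp3YFP-Cre replicate 4 was the lowest control library for 9 of the 10 genes and the lowest of all 8 libraries for 8. How often that library was lowest among all tested genes was not counted. Its median distance from the control mean over the 10 genes was −0.12 on the log2 scale. Over all tested genes it was 0.0013, a median that normalization holds near 0 in every library. Foxp3YFP-Cre replicate 2 was the highest control for 8 genes, with a median distance of 0.11. Tdrd3fl/fl/Foxp3YFP-Cre libraries were closer together, with median distances between −0.04 and 0.04. Without Foxp3YFP-Cre replicate 2 the genotypes no longer overlapped for 5 of the 10 genes, *Aldoa*, *Hk1* and *Pfkp* besides *Hk2* and *Slc2a3*, all higher in Tdrd3fl/fl/Foxp3YFP-Cre iTregs. Over all tested genes 7.68% were without overlap in that comparison of 3 with 4 libraries, in either direction. That library was singled out as the highest control for 8 of these genes. Leaving it out favours separation in this direction for them, so the 7.68% is not a like comparison. With any other single library left out the count stayed at 2. What set these control libraries apart was not tested.

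**Figure D3:**
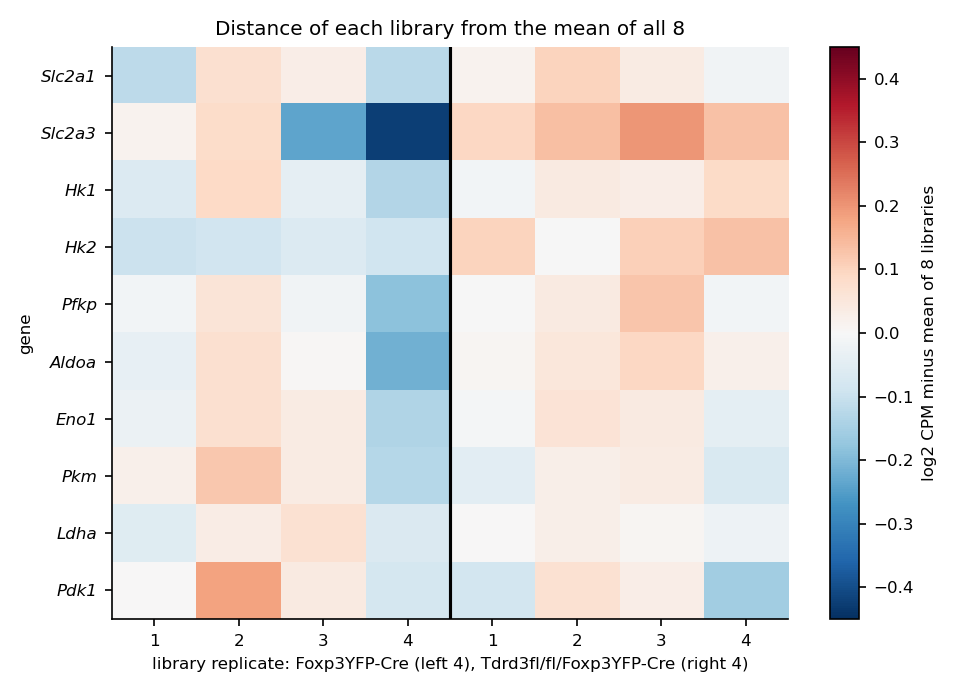
Difference of log2 CPM in each library from the mean of all 8 libraries, by gene (rows) and library (columns, Foxp3YFP-Cre replicates 1 to 4 left of the black line and Tdrd3fl/fl/Foxp3YFP-Cre replicates 1 to 4 right of it). The column of Foxp3YFP-Cre replicate 4 is blue in every row, down to −0.42 for *Slc2a3*, and that of Foxp3YFP-Cre replicate 2 is red in every row except *Hk2*.

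Ratios of 2 genes within a library do not depend on its normalization, and 5 were compared to see whether the balance between isozymes shifted. The ratio of *Slc2a3* to *Slc2a1* counts was 0.405, 0.372, 0.307 and 0.299 in the control libraries and 0.390, 0.377, 0.413 and 0.409 in the Tdrd3fl/fl/Foxp3YFP-Cre libraries. It was low in the libraries labelled Foxp3YFP-Cre replicates 3 and 4, replicate 2 lay just below the lowest Tdrd3fl/fl/Foxp3YFP-Cre library, and replicate 1 lay among the Tdrd3fl/fl/Foxp3YFP-Cre values. The mean log2 ratio was higher by 0.21 in Tdrd3fl/fl/Foxp3YFP-Cre iTregs (two-sided exact permutation test, p = 0.114, adjusted over the 5 ratios 0.214). For *Hk2* to *Hk1* the ratio was 1.03, 0.932, 1.04 and 1.08 in controls and 1.14, 1.02, 1.11 and 1.09 in Tdrd3fl/fl/Foxp3YFP-Cre libraries, a log2 difference of 0.10 (exact permutation p = 0.171). The log2 ratios of *Pfkp* to *Pfkl* (platelet-type to liver-type phosphofructokinase), of *Ldha* to *Ldhb* and of *Aldoa* to *Aldoc* differed by 0.10, 0.10 and 0.22, with exact permutation p of 0.143, 0.143 and 0.314. All 5 mean ratios were higher in Tdrd3fl/fl/Foxp3YFP-Cre iTregs, all 5 overlapped between genotypes, and no adjusted p was under 0.214.

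**Figure D4:**
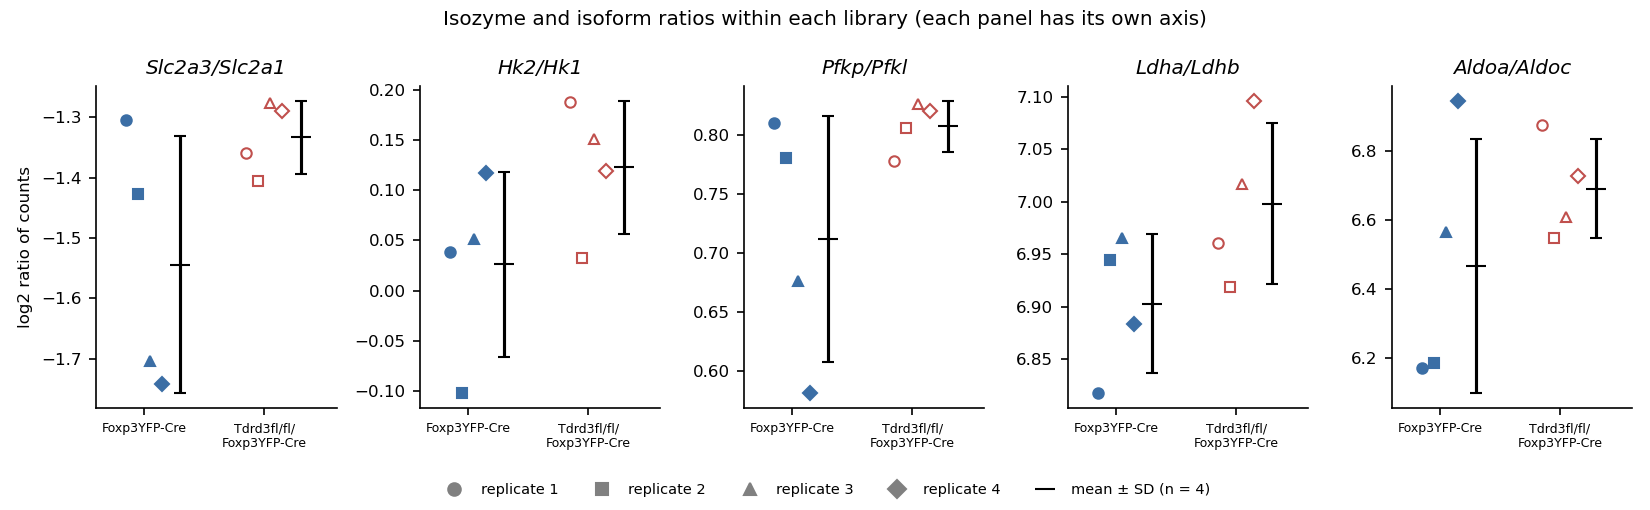
Log2 ratio of counts of 2 isozyme genes in each library, with filled blue symbols for Foxp3YFP-Cre, open red symbols for Tdrd3fl/fl/Foxp3YFP-Cre and a bar for mean ± SD (n = 4 libraries); every panel has its own axis. The 2 genotypes overlap in all 5 panels, and the control values of *Slc2a3*/*Slc2a1* spread from −1.74 to −1.30.

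Of 37 further genes of the route, 33 were tested and none passed the adjusted edgeR threshold. An unadjusted P below 0.05 was found for 2 with more RNA in Tdrd3fl/fl/Foxp3YFP-Cre iTregs and 3 with less, beside 9.3% of all tested genes. Beside *Gapdh*, *Slc2a6* and *Eno3* these were 2 genes named after their values were seen, *Gpd2* of the glycerol phosphate shuttle (log2 fold change 0.15, edgeR adjusted p = 0.496) and *Pfkfb3*, whose product makes an activator of phosphofructokinase (−0.16, edgeR adjusted p = 0.380). The 2 genes past the 1.2-fold demand, beside 3.47% of all tested genes, were both lower. *Slc2a6*, which encodes GLUT6, a member of the same transporter family, had 27.9, 31.4, 33.4 and 34.8 CPM in controls and 22.9, 26.8, 25.9 and 22.9 CPM in Tdrd3fl/fl/Foxp3YFP-Cre iTregs. These values did not overlap, and the log2 fold change was −0.37 with a standard error of 0.084 (adjusted p = 0.0751 in edgeR, 0.0207 in DESeq2 and 0.0699 in limma). *Eno3*, the enolase known from muscle, had 231, 235, 277 and 228 CPM in controls and 162, 221, 214 and 164 CPM in Tdrd3fl/fl/Foxp3YFP-Cre iTregs. It too did not overlap, with a log2 fold change of −0.35 and a standard error of 0.085 (adjusted p = 0.0888 in edgeR, 0.318 in DESeq2 and 0.0368 in limma). Of the exon length of *Eno3*, 18.6% lies opposite the noncoding gene *Gm12319*, whose reads could have been counted with it if strand was ignored. *Slc2a6* lay on the other side of 0 from *Slc2a3*, a gene of the same family. *Eno3* lay below 0, while the interval of *Eno1* ran from −0.06 to 0.11. The difference within either pair was not tested.

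The enzymes that complete the reactions of glycolysis between the 10 genes moved little. *Gpi1* (647 ± 43.6 and 653 ± 22.2 CPM), *Tpi1* (1271 ± 91.0 and 1297 ± 35.9 CPM) and *Pgk1* (731 ± 66.8 and 746 ± 20.5 CPM; SD, n = 4 for each value, controls first) had log2 fold changes of 0.01, 0.03 and 0.03. *Pgam1*, at 0.08, and *Gapdh*, at 0.11 with an unadjusted edgeR P of 0.0368 and an adjusted p of 0.496, were somewhat higher in the mean. The other phosphofructokinase subunits *Pfkl* and *Pfkm* had −0.02 and 0.01, and *Ldhb*, the lactate dehydrogenase subunit that favours pyruvate, had −0.09. Of the monocarboxylate transporters that carry lactate out of the cell, *Slc16a1* had 0.08 and *Slc16a3* had −0.05. Much of the exon length of some of these genes lies opposite another gene, whose reads could have been counted with them if strand was ignored. It was 41.6% for *Gapdh* (*Iffo1*), 40.1% for *Slc16a3* (*Csnk1d*) and 39.8% for *Pfkl* (*Cfap410*). *Tpi1* had the highest CPM of the further genes, not corrected for length, and *Pdk2* the lowest, at 2.75 ± 0.65 CPM in controls (SD, n = 4). In the pentose phosphate pathway, which branches off after hexokinase, all 7 genes were tested, none had an unadjusted P below 0.05, and log2 fold changes lay between −0.07 and 0.02, from *Tkt* at 711 ± 7.01 CPM down to *Rpia* at 60.4 ± 5.07 CPM in controls.

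Regulators of the route and targets of hypoxia-inducible factors formed a list of 20 genes, all tested. The 1 gene past the adjusted threshold was *Egln3*, a prolyl hydroxylase that marks hypoxia-inducible factors for degradation and is itself induced by them. *Egln3* had 113, 118, 98.4 and 100.1 CPM in controls and 156, 134, 144 and 149 CPM in Tdrd3fl/fl/Foxp3YFP-Cre iTregs. It rose by 0.44 on the log2 scale with a standard error of 0.060 (edgeR adjusted p = 0.0018), without overlap between genotypes, and it passed in all 15 alternatives. *Adm*, which encodes the peptide adrenomedullin, had an unadjusted P of 0.0377 on counts near the detection limit, 2.03 ± 0.37 CPM in controls and 1.201 ± 0.51 CPM in Tdrd3fl/fl/Foxp3YFP-Cre iTregs (SD, n = 4 each, log2 fold change −0.74, edgeR adjusted p = 0.499). The genotypes were also without overlap for 3 genes named here after their values were seen, *Vegfa* (0.26, adjusted p = 0.0848), *Ndrg1* (0.23, adjusted p = 0.252) and *Ero1a* (0.18, adjusted p = 0.164; edgeR in each case). With *Egln3* these were 4 of the 20, beside 4.89% of all tested genes in either direction. The list was drawn up with earlier results of these data known, so this share describes the list and is no test of it. The list was not uniform: 14 log2 fold changes were positive and 6 negative, from −0.74 to 0.44 with a median of 0.06. Of the transcription factors, *Hif1a* had 302 ± 21.8 CPM in controls and 332 ± 41.0 CPM in Tdrd3fl/fl/Foxp3YFP-Cre iTregs (log2 fold change 0.14, edgeR adjusted p = 0.557), and *Myc* had 394 ± 24.4 and 418 ± 8.07 CPM (log2 fold change 0.08, edgeR adjusted p = 0.586; SD, n = 4 for each value). *Myc* had the highest CPM of this list, not corrected for length, and *Car9*, a carbonic anhydrase, the lowest.

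**Figure D5:**
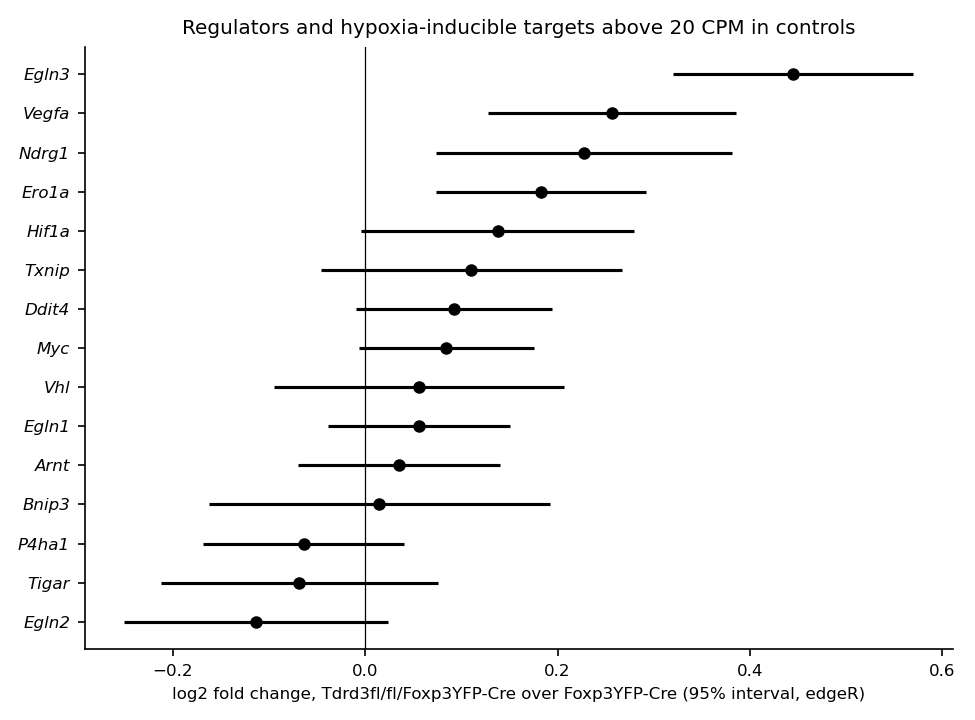
Log2 fold change, Tdrd3fl/fl/Foxp3YFP-Cre over Foxp3YFP-Cre, with its 95% interval from edgeR (n = 4 libraries per genotype), for the 15 of the 20 regulators and hypoxia-inducible targets above 20 CPM in controls. *Egln3*, at 0.44, stands apart from the other genes, and *Hif1a* at 0.14 and *Myc* at 0.08 have intervals that reach 0. *Adm* at −0.74 and *Epas1* at −0.64 are below 20 CPM and not shown.

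The genes outside these lists whose log2 CPM followed that of *Slc2a1* most closely over the 8 libraries were *Wipf1* (Pearson r = 0.955, Spearman rho = 1), *C1qtnf6* (r = 0.934), *Rps10* (r = 0.928), *Rpsa* (r = 0.928) and *Fbxo36* (r = 0.919). Without the 2 libraries farthest from the median of *Slc2a1*, r was 0.531 for *Rpsa* and 0.744 for *C1qtnf6*, and at least 0.909 for the other 3. For *Hk2* they were *Asns* (r = 0.974, rho = 0.905), which encodes asparagine synthetase, *Mapk8* (r = 0.971), *Lars1* (r = 0.965), *Lag3* (r = 0.953) and *Bltp3a* (r = 0.950), with r of at least 0.905 in the same check. Like *Hk2*, all of them had more RNA in Tdrd3fl/fl/Foxp3YFP-Cre iTregs, with log2 fold changes of 0.38, 0.20, 0.12, 0.38 and 0.24 in that order. Their r therefore includes the difference between genotypes, and variation within a genotype was not examined apart. Among the 10 genes, *Slc2a1* was nearest to *Eno1* (r = 0.868) and to *Ldha* (r = 0.853), while *Hk2* had r = 0.052 with *Ldha*. These correlations describe 8 libraries of 2 genotypes, were picked as the highest of all tested genes, and share the normalization of each library.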

How the data were processed

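Total RNA depleted of ribosomal RNA (KAPA RNA HyperPrep with RiboErase) was sequenced from 8 libraries. The authors aligned reads to GRCm39 with STAR 2.7.8a, and deposited estimated counts per gene from the expectation-maximization counter of Partek, filtered and not normalized; 43.0% of values are not whole. Counting by strand and annotation version are not given in the sources used here. Here, counts were rounded and tested for genotype with edgeR 4.0.16 (TMM, quasi-likelihood, two-sided, Benjamini-Hochberg). filterByExpr with a minimum count of 10 kept 11317 of 11911 genes. DESeq2 1.42.0, limma 3.58.1 (voom), other filters and scalings, a replicate block and each library left out were alternatives, and the edgeR script was tested on simulated data. Single values were compared by exact permutation on log2(CPM + 0.5) and ratios on counts + 0.5, BH over 5 ratios. p-values and intervals measure the spread between these 4 libraries per genotype. Chi-square per degree of freedom between libraries of a genotype was 2.59 or more, so none was a duplicate. In controls the closest pair was replicates 1 and 2 at 2.70, with the other pairs at 4.95 to 6.29. In Tdrd3fl/fl/Foxp3YFP-Cre libraries it was replicates 1 and 4 at 2.59, with the other pairs at 3.78 to 4.85. Whether the libraries of such a pair share a mouse or a culture was not tested. Exon lengths and shared 100-base stretches came from GENCODE annotation of GRCm39.

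The 10 genes and all lists were chosen with earlier results of these data known. Named genes are the 10, list genes past either threshold, those that complete glycolysis, and the most and least abundant of each list.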

Additional observations from a re-analysis of the deposited data

Results flagged for a closer look

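*Eno3* in controls had 1 library far from the others: the one labelled Foxp3YFP-Cre replicate 3 stood at 277 CPM and the other 3 between 228 and 235 CPM. The gap took up 0.863 of the range of the 4 libraries, above the 95% critical value of Dixon's test. Of the 48 groups of 4 libraries examined this was the 1 flagged, where chance flags about 5% of groups.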

How the results depend on the processing

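Among the 10 genes, the count past the adjusted threshold was 1 in DESeq2 and 1 in limma, and the count past the 1.2-fold demand was 0 in limma. The further genes of the route, the pentose phosphate pathway and the regulators held 60 tested genes. Of these, 1 passed the adjusted threshold and 4 the 1.2-fold demand in edgeR, beside 0.265% and 3.47% of all tested genes. The adjusted count was 3 in DESeq2 (*Egln3*, *Slc2a6*, *Vegfa*), 2 in limma (*Egln3*, *Eno3*) and 3 with the replicate block (*Egln3*, *Eno3*, *Slc2a6*). Over all tested genes it was 30 in edgeR, 81 in DESeq2, 95 in limma and 87 with the replicate block. The replicate numbers did not pair the libraries: deviations of same-numbered libraries correlated between −0.046 and 0.069, and 1 of 8 libraries correlated best with its own number.

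With each library left out in turn, the adjusted count among the 10 genes was 0 to 1, the 1.2-fold count 0 to 1 and the count without overlap 2 to 5. For the other lists the adjusted count was 1 to 3 and the 1.2-fold count 3 to 7, and over all tested genes they were 6 to 162 and 302 to 530. The log2 fold change of *Eno1* ranged from −0.016 to 0.053, of *Ldha* from −0.015 to 0.031 and of *Pkm* from −0.074 to 0.0082, so the direction of these 3 changed with single libraries; those of the other 7 genes kept their sign in every alternative. Without Tdrd3fl/fl/Foxp3YFP-Cre replicate 2, 162 genes passed over all tested genes, and without Tdrd3fl/fl/Foxp3YFP-Cre replicate 1, 6 did; the cause was not tested. With 4 libraries per genotype, the interval of a single gene among the 10 had a median half-width of 0.097 on the log2 scale. This width is not the smallest difference that the adjusted test could call. *Hk2* at 0.17 and *Slc2a3* at 0.27 did not pass that test in edgeR (adjusted p = 0.0758 and 0.205). The smallest difference it could call was not tested.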
